A study of Mus musculus with 6 samples.

Results

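The cytokine genes Ifng, Tnf, Lta, Ltb, Il2, Il3, Csf2, Il4, Il13 and Il10 were followed in RNA-seq counts of mouse CD8+ T cells cultured with or without sphingosine-1-phosphate (S1P), a circulating lipid that signals through the receptor S1PR1 and its relatives. The 10 genes were chosen by name as the effector and helper cytokines of T cells, and all of them are among the 56941 genes listed in the count table. By their labels, both groups started from naive CD8+ T cells of the spleen of B6 mice. The cells were kept for 3 days on plate-bound antibodies to CD3 and CD28 with recombinant IL-2 at 100 U/ml. At 24 h the first group received S1P at 5 µM (n = 3) and the second received vehicle (n = 3), so that the cells met their T cell receptor stimulus before S1P. The methods of the study name purified naive T cells or total splenocytes as the starting cells, the labels give no age or sex of the mice, and the labels call the samples biological replicates without saying whether they came from separate mice, so p-values measure the spread between these samples. The comparison asks which of the cytokine transcripts differ after S1P exposure during activation.

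Activated T cells make these proteins in short bursts. The T cell receptor switches their genes on through NFAT, AP-1 and NF-kB, lineage factors such as T-bet, Eomes and GATA3 decide which of them are open, and proteins that bind AU-rich stretches of the transcripts' 3′ ends or stem-loops remove the mRNA again. CD8+ T cells are best known for IFN-γ and TNF, while IL-4, IL-13, IL-10, IL-3 and GM-CSF are better known as products of helper T cells, mast cells and innate lymphoid cells. Of the genes studied, 7 lie in 3 clusters: Tnf, Lta and Ltb on chromosome 17 inside the major histocompatibility complex, Il3 and Csf2 on chromosome 11, and Il4 and Il13 elsewhere on chromosome 11.

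The AU-rich element is the regulatory sequence that these cytokine transcripts are known for, and it is shown first because the levels below are levels of mRNA. Its core is the pentamer ATTTA, and 8 of the 9 genes described here held at least 1 in the longest annotated 3′ untranslated region (GRCm39). For each gene named here the 30 bases with the most copies are given 5′ to 3′ on the strand of the gene, with every ATTTA in capitals.
Ifng, chr10:118281235-118281264, plus strand: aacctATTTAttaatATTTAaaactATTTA
Tnf, chr17:35418655-35418684, minus strand: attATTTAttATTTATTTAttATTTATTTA
Il2, chr3:37175189-37175218, minus strand: ctATTTATTTAaatATTTAactttaATTTA
Lta, chr17:35422384-35422413, minus strand: tATTTAtggagagaaaagttaagttATTTA
Csf2, chr11:54138155-54138184, minus strand: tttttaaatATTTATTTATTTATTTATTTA
Il3, chr11:54156133-54156162, minus strand: ctttatgccatcaaatgtcttatcaATTTA
Csf2 carried a dense array, with 9 copies in 317 bases, or 28.4 per kilobase. Only 0.0345% of the 20306 genes with an annotated 3′ untranslated region of at least 100 bases held as many per kilobase, and the median gene held 1.36. Il2 had 7 in 581 bases (12 per kilobase), Tnf had 8 in 764 bases (10.5 per kilobase) and Ifng had 6 in 631 bases (9.51 per kilobase). Il3 had 1 copy in 101 bases, which came to 9.9 per kilobase. Il10 had 6 copies in 706 bases (8.5 per kilobase), Lta 3 in 572 bases (5.24 per kilobase) and Il13 3 in 741 bases (4.05 per kilobase). Ltb was the exception, with none in 174 bases. No ATTTA was found in 26% of all these genes. The pentamer count was added after the values of the genes were seen, and a copy is a match of letters, not a measured site of binding.

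Promoters are printed for Ifng, Lta and Il3, the 3 cytokine genes that passed the test described below. Each is the 250 bases before the RefSeq start (table built on GRCm38.p6, placed on GRCm39 by a unique exact match), 5′ to 3′ on the strand of the gene. Capitals mark matches to any of 8 short motifs of factors known to act on cytokine genes, searched on both strands and allowed to overlap, with the letters of each spelled out after the sequences.
Ifng, chr10:118276701-118276950, plus strand: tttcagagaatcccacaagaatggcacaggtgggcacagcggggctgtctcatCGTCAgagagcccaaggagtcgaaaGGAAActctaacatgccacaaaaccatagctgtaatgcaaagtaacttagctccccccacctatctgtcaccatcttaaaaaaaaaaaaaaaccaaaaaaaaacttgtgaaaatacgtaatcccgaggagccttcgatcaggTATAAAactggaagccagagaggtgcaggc
Lta, chr17:35424328-35424577, minus strand: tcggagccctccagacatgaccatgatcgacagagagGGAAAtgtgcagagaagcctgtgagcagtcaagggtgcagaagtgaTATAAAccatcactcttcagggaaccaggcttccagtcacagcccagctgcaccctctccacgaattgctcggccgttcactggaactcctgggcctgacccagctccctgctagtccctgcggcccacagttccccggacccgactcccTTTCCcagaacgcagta
Il3, chr11:54158106-54158355, minus strand: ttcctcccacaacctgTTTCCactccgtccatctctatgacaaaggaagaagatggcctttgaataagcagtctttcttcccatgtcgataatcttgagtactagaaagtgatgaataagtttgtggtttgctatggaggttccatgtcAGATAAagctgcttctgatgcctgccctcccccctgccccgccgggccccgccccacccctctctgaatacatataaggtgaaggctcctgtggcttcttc
The Ifng window held a TATA box at base -30 from the start, an NFAT core at base -172 and a CRE core at base -197. Lta had NFAT cores at bases -213 and -17 and TATAAA at base -167, away from the usual place of a TATA box. Il3 had 1 NFAT core at base -234 and the letters of a GATA motif at base -101. Over the 300 bases of the table, which run 50 past the start, 9 of the 10 genes had an entry, and all 9 held the NFAT core, searched as GGAAA, as did 61.4% of the 32841 promoters in the table. The TATA box (TATAAA) was in 5 of the 9 (Ifng, Tnf, Il2, Lta and Il13) against 13.6% of all promoters. The letters of NF-kB, searched as GGGNNTT, were in 5 (Il2, Ltb, Csf2, Il4 and Il13) against 45.9%. The CRE core, TGACG, at which ATF and CREB proteins bind, was in 3 (Ifng, Il4 and Il13) against 20.8%. The GATA letters, here AGATAA, were in 3 (Csf2, Il3 and Il13) against 11.2%. An AP-1 match to TGANTCA was found in 0 of the 9 windows and in 7.81% of all promoters. The composite C/EBP-ATF letters were searched as TTGCATC and were in 0 of the 9 and in 2.53% of all promoters. For T-box factors the letters searched were TCACAC, which were in 0 of the 9 and in 14.5% of all promoters. These shares describe letters in a window and were not tested.

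The libraries held 13636095 to 17089831 counts in the vehicle group and 12048880 to 17384084 in the S1P group. S1P replicate 2 stood apart from the others, with 7.8% of its counts on mitochondrial genes against 4.1% to 4.93% in the other 5 libraries, so values without it are given beside each cytokine gene. Of the 13299 genes tested, 3071 (23.1%) passed the test used throughout, edgeR's quasi-likelihood test called where its Benjamini-Hochberg adjusted p did not exceed 0.05 and its log2 fold change reached 0.3 in either direction: 1687 were higher (12.7%) and 1384 lower (10.4%) with S1P. T cell markers were high in every library, with Lck at 390 ± 9.96 (vehicle) and 379 ± 4.13 (S1P) CPM (counts scaled with TMM factors to a total of 1000000 per library, mean ± SD, n = 3). Cd8a stood at 208, 251 and 207 CPM with vehicle and at 144, 132 and 142 CPM with S1P, and was called lower (log2 fold change -0.67, edgeR adjusted p = 0.000243). Cd8b1, the partner chain, was also lower (-0.55, edgeR adjusted p = 0.00767). Without vehicle replicate 2, its highest library, Cd8b1 was -0.37 (edgeR adjusted p = 0.0186). Cd3d (135 and 111 CPM, -0.28, edgeR adjusted p = 0.0129) and Cd3g (169 and 145 CPM, -0.21, 0.0444), chains of the T cell receptor complex, had every S1P library below every vehicle library and were under the fold threshold. Cd3d was past it with total counts (-0.31), with no filter (-0.31), without vehicle replicate 1 (-0.34) and without S1P replicate 3 (-0.33). Cd2, an adhesion receptor of T cells, was called higher (219 and 276 CPM, 0.33, edgeR adjusted p = 0.0131). The list of 8 CD8 T cell markers summed to 1690 to 1874 CPM with vehicle and 1578 to 1742 CPM with S1P, so the sums overlapped. Apart from Cd8a and Cd8b1, its genes mark T cells in general, so this sum does not measure CD8 T cells alone. Cd2 missed the thresholds without vehicle replicate 1 (0.30, edgeR adjusted p = 0.0695) or without S1P replicate 2 (0.23, 0.00628). Transcripts of other cells were present as well: Cd4 stood at 203 ± 18.4 and 218 ± 31.6 CPM (log2 fold change 0.10, edgeR adjusted p = 0.487), and all 8 B cell markers were above 3 counts in every library. In the B cell list Ighm, the heavy chain of IgM, was the highest, at 528 ± 47.7 and 533 ± 14.6 CPM. Ms4a1 (-0.39) and Cd22 (-0.44), both B cell surface proteins, were called lower with S1P (edgeR adjusted p = 0.00889 and 0.00642). Pax5, the B cell lineage factor, was not called, with a positive log2 fold change and groups apart (165 and 208 CPM, 0.33, edgeR adjusted p = 0.0699), and it passed without S1P replicate 1 (0.42, 0.0226) and was 0.17 (0.164) without S1P replicate 2. Ms4a1 missed the threshold without vehicle replicate 1 (-0.33, edgeR adjusted p = 0.0513) or without vehicle replicate 3 (-0.34, edgeR adjusted p = 0.0508). In such mixed RNA, fewer cells of a type and less RNA per cell cannot be told apart.

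**Figure D1:**
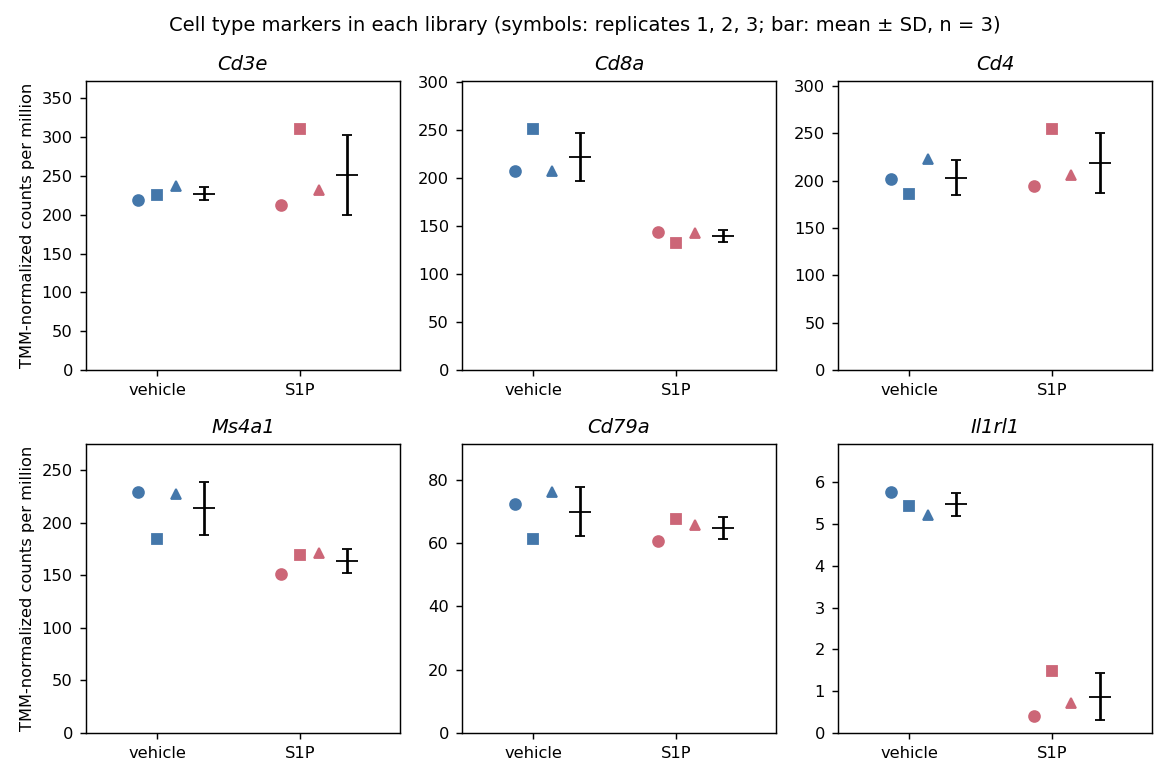
TMM-normalized CPM of 6 cell type markers in each library, with vehicle (blue) and S1P (red); circles, squares and triangles are replicates 1, 2 and 3, and the bar is the mean ± SD (n = 3). Cd8a lies between 132 and 144 CPM in the S1P libraries and between 207 and 251 CPM in the vehicle libraries, whereas the groups overlap for Cd3e, Cd4 and Cd79a.

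Sums over marker lists show which other cells could bear on the cytokines. The list of CD4 T cell and regulatory T cell markers summed to 475 to 563 CPM with vehicle and 741 to 800 CPM with S1P, with all 6 markers above 3 counts in every library. Ctla4, an inhibitory receptor that activated T cells also express, made most of that difference (254 ± 69.3 and 487 ± 16.4 CPM, log2 fold change 0.94, edgeR adjusted p = 0.000826), while Cd4 itself was not called. Zbtb7b, the lineage factor of CD4 T cells (24.6 and 31.7 CPM, 0.37, edgeR adjusted p = 0.00886), and Cd40lg, the CD40 ligand of helper T cells (14.4 and 20.6 CPM, 0.50, 0.0134), were called higher as well. So 3 of the 5 tested markers of this list were called higher, beside 12.7% of all tested genes. Foxp3, the factor of regulatory T cells, was not called (8.08 and 8.33 CPM, 0.02, edgeR adjusted p = 0.94). Cd40lg missed the threshold without vehicle replicate 2 (0.42, edgeR adjusted p = 0.0615) or without S1P replicate 3 (0.45, 0.0601). Mast cell and basophil markers were near the floor: 2 of 11 were above 3 counts in every library, 2 were at 0 in all libraries, and the list summed to 5.72 to 6.37 CPM with vehicle and 6.02 to 6.85 CPM with S1P, most of it from Hdc, the histamine-making enzyme. The list for type 2 innate lymphoid cells summed to 32.3 to 42 CPM and 69.6 to 81 CPM. In that list Rora and Gata3, which T cells also express, were higher with S1P, and Il1rl1, the IL-33 receptor, was lower (5.47 and 0.864 CPM, log2 fold change -2.76, edgeR adjusted p = 0.000153). NK cell markers summed to 35.4 to 51.6 CPM and 42.2 to 43.6 CPM, and their highest gene was Klrk1 (27 and 29.4 CPM). NKT cell markers summed to 6.97 to 8.55 CPM and 8.17 to 9.13 CPM, with Cxcr6 the highest (5.12 and 6.16 CPM). Myeloid markers summed to 570 to 723 CPM and 522 to 607 CPM, most of it Cd74, the invariant chain of MHC class II that B cells also express (582 and 485 CPM). B cell markers summed to 1342, 1098 and 1340 CPM in vehicle replicates 1 to 3 and to 1154, 1256 and 1230 CPM in the S1P replicates. The part of these cells in the cytokine values was not tested.

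Per kilobase of exon, Ifng was the most abundant of the 10 cytokine transcripts in both groups, at a level of 162 ± 7.96 CPM per kilobase with vehicle and 115 ± 13.7 with S1P (mean ± SD, n = 3). The membrane-anchored lymphotoxin Ltb (49.3 ± 2.44) and the soluble lymphotoxin Lta (47.9 ± 9.14) came next with vehicle, and these neighbours in the order did not differ beyond their spread. A wide step followed down to Tnf (7.3 ± 1.63) and Il2 (6.19 ± 1.57), which again overlapped. Csf2 (3.43 ± 0.786), Il13 (2.04 ± 0.502), Il10 (1.53 ± 0.131), Il4 (1.26 ± 0.364) and Il3 (1.09 ± 0.15) closed the order in the vehicle group, at levels of a few CPM per kilobase. With S1P, Ifng, Ltb (43.9 ± 7.83) and Lta (33.7 ± 5.12) stayed the 3 highest. Csf2 (5.69 ± 3.46) stood beside Tnf (5.65 ± 0.348) and Il2 (4.43 ± 0.985), and Il3 (2.52 ± 0.469) stood above Il4 (1.91 ± 0.724) and Il10 (1.83 ± 0.34). The level of Il4 depended on the length used, since its longest transcript gives 2.55 (vehicle) and 3.86 (S1P) CPM per kilobase.

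**Figure D2:**
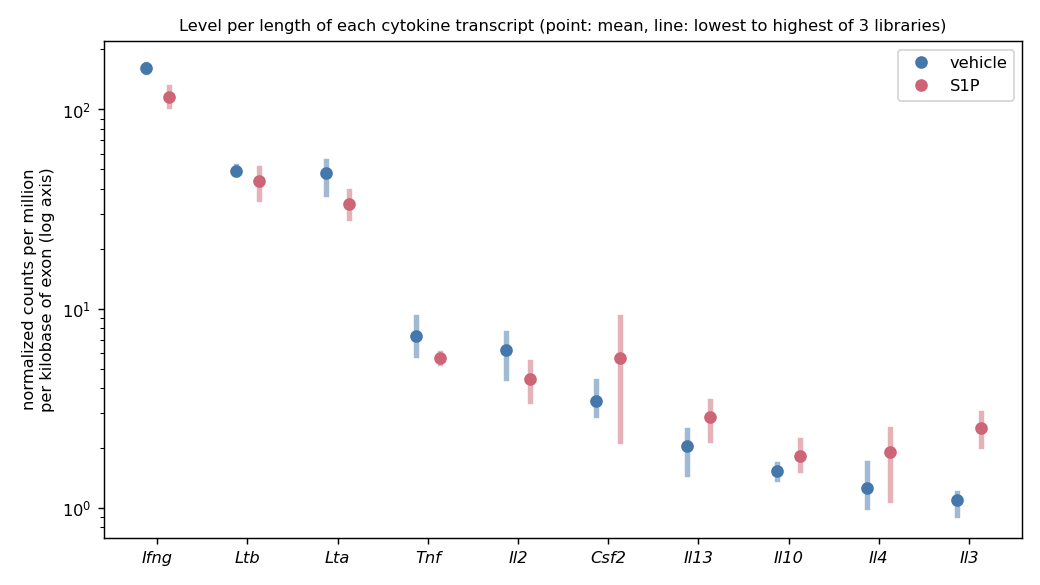
Normalized CPM per kilobase of exon (log axis) for the 10 cytokine genes, ordered by their vehicle level; points are means and lines run from the lowest to the highest of 3 libraries. Ifng lies between 104 and 169 over both groups, Ltb and Lta lie between 28.7 and 55, and the other 7 genes lie at 9.11 or below.

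Of the 10 genes, all of which passed the filter on low counts, 2 were called lower (Ifng and Lta), 1 was called higher (Il3) and 7 were not called. This share of 30% stands beside 23.1% of all tested genes, and is close to that background for a list of 10. The groups did not overlap for Ifng and Il3 alone, against 45.6% of all tested genes. The median log2 fold change of the 10 genes was 0.04, beside 0.01 over all tested genes. The 5 genes with the highest vehicle levels per kilobase (Ifng, Lta, Ltb, Tnf and Il2) had negative log2 fold changes and the 5 with the lowest had positive ones. A lean of the same sign with depth was present across the table, where the tested genes, split into 4 groups of equal size by mean count, had positive log2 fold changes in 59.2% of the group with the fewest counts and in 45.5% of the group with the most. Csf2, Il3, Il10, Il4 and Il13 all belong to the group with the fewest counts, where the median standard error of a log2 fold change was 0.31 and 12.3% of genes were called. Tnf and Il2 belong to the next group, with 54.3% positive, and Lta to the one after, with 47%. Ifng and Ltb belong to the group with the most counts. Summed over the 10 genes, the transcripts made up 383, 377 and 416 CPM in the vehicle libraries and 284, 317 and 298 CPM in the S1P libraries, and Ifng made up 50.9% to 58.1% of that sum with vehicle and 47.4% to 53.2% with S1P.

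**Figure D3:**
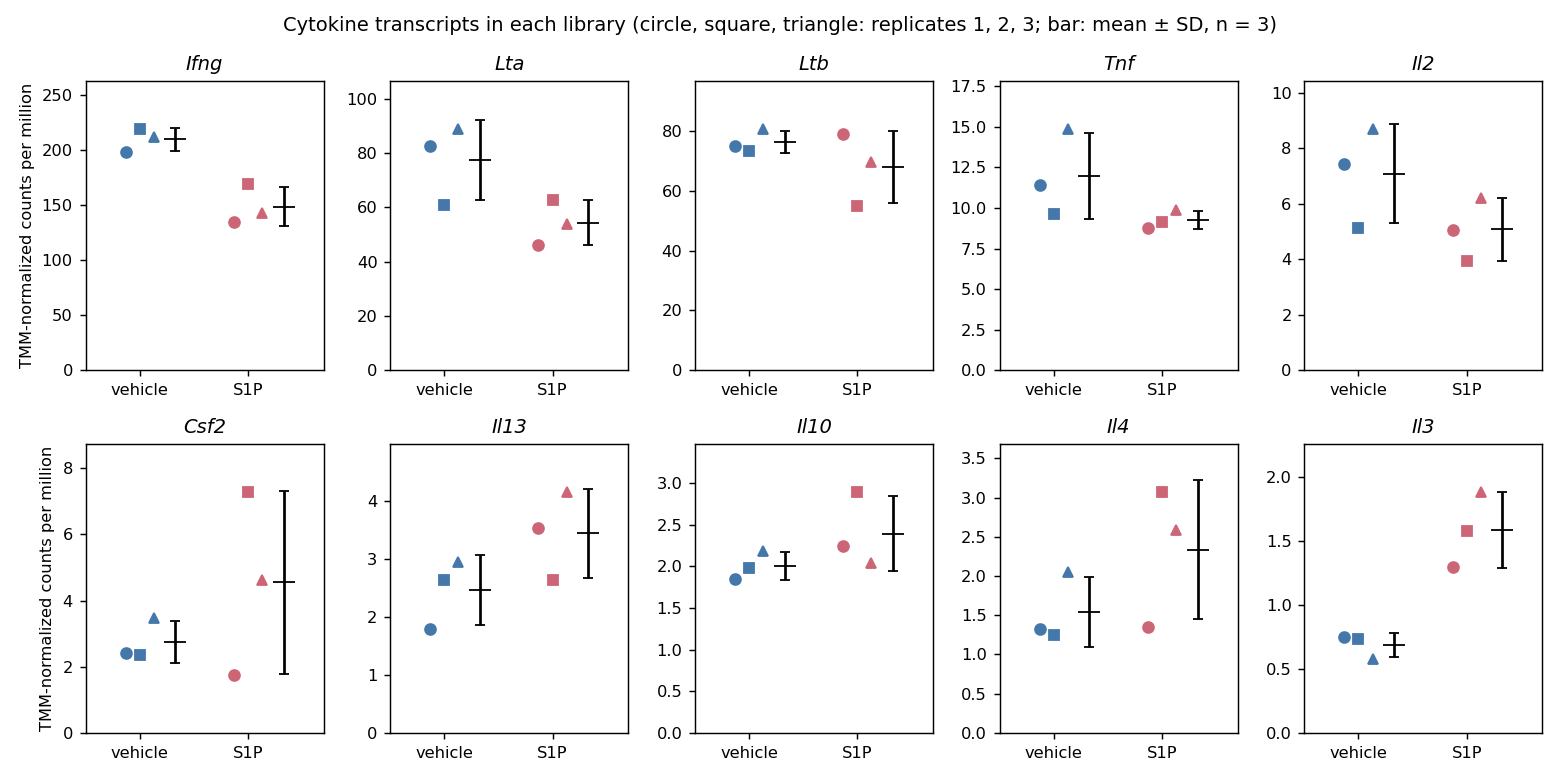
TMM-normalized CPM of each of the 10 cytokine genes in the 3 vehicle (blue) and 3 S1P (red) libraries; circles, squares and triangles are replicates 1, 2 and 3, and the bar is the mean ± SD (n = 3). The groups are apart for Ifng, lower with S1P, and for Il3, higher with S1P, and they overlap for the other 8 genes.

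Ifng, on chromosome 10 (ENSMUSG00000055170, 118276951 to 118281797, plus strand), encodes IFN-γ, which arms macrophages and raises antigen presentation. Its counts were 3447, 2987 and 3293 in vehicle replicates 1 to 3 and 2395, 1924 and 1820 in S1P replicates 1 to 3. After scaling these were 199, 219 and 212 CPM with vehicle and 135, 169 and 143 CPM with S1P. Every S1P library lay below every vehicle library, and S1P replicate 2 was the nearest to the vehicle group. Ifng fell to 0.709 of the vehicle level (log2 fold change -0.50, SE 0.09, 95% interval -0.69 to -0.31, edgeR adjusted p = 0.00162), with counting error alone giving an SE of 0.0235. The call held without each library in turn, with log2 fold changes from -0.59 (without S1P replicate 2) to -0.43 (without S1P replicate 1). Of its exon bases, 25.9% overlap Gm49751, a gene model on the same strand that had 20 to 51 counts per library, and how reads on shared bases were counted is not given in the sources used here. Cd8a, a marker of the CD8+ T cells in this mixed RNA, was lower in the same libraries by -0.67 (log2), and its part in the Ifng value was not tested.

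Tnf, Lta and Ltb lie side by side on chromosome 17, and encode ligands of the TNF superfamily that signal through TNFR1, TNFR2 and the lymphotoxin β receptor. Tnf (ENSMUSG00000024401, 35418357 to 35420983) and Lta (ENSMUSG00000024402, 35422141 to 35424327) are both on the minus strand with 1158 bases between them, and Ltb (ENSMUSG00000024399, 35413382 to 35415296) is on the plus strand, 3061 bases from Tnf. Lta, which encodes the secreted lymphotoxin α, had 1431, 827 and 1380 counts with vehicle and 822, 715 and 687 with S1P, or 82.5, 60.7 and 88.7 CPM against 46.3, 62.7 and 53.9 CPM. The groups overlapped, because vehicle replicate 2 lay below S1P replicate 2. Lta was called lower at 0.699 of the vehicle level (log2 fold change -0.52, SE 0.14, 95% interval -0.82 to -0.22, edgeR adjusted p = 0.0163). The call was lost without vehicle replicate 1 (-0.47, edgeR adjusted p = 0.0684), without vehicle replicate 3 (-0.41, 0.0835) and without S1P replicate 3 (-0.52, 0.0572), and it held without S1P replicate 2 (-0.63, 0.0021).

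Tnf, the gene of tumor necrosis factor, had 198, 131 and 231 counts with vehicle and 156, 104 and 126 with S1P. Scaled, these were 11.4, 9.61 and 14.9 CPM against 8.78, 9.13 and 9.89 CPM. Vehicle replicates 1 and 3 lay above all S1P libraries and vehicle replicate 2 lay among them. The log2 fold change was -0.37 (SE 0.16, 95% interval -0.72 to -0.03), which did not pass (edgeR adjusted p = 0.0977). Without vehicle replicate 2 it would have been called (-0.51, edgeR adjusted p = 0.043), without vehicle replicate 3 it was -0.19 (0.402), and without S1P replicate 2 it was -0.37 (0.117). Ltb, which anchors lymphotoxin to the membrane and organizes lymphoid tissue, had 1304, 1000 and 1254 counts with vehicle and 1405, 627 and 889 with S1P. These came to 75.2, 73.3 and 80.6 CPM against 79.1, 55 and 69.8 CPM, so S1P replicate 1 lay inside the vehicle range and S1P replicates 2 and 3 lay below it. The log2 fold change of Ltb was -0.16 (SE 0.11, 95% interval -0.40 to 0.08, edgeR adjusted p = 0.296). It moved to -0.03 (0.77) without S1P replicate 2 and to -0.29 (0.0465) without S1P replicate 1, which is under the fold threshold. A lncRNA model on the opposite strand, Gm65873, covers 22.9% of the Ltb exons, and the strand setting of the counting is not given in the sources used here.

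Vehicle replicate 2 was the lowest vehicle library for Lta, Tnf and Ltb as well as for the B cell markers (1098 CPM against 1340 and 1342 CPM), and the highest for Cd8a and Ifng. B cells also express lymphotoxins and TNF, and their part in these values was not tested. As ratios of counts within a library, chosen after the values were seen, Lta to Tnf ran from 5.97 to 7.23 with vehicle and from 5.27 to 6.88 with S1P. Lta to Ltb ran from 0.827 to 1.1 with vehicle and from 0.585 to 1.14 with S1P. The groups overlapped for both ratios, so a difference in balance within the locus was not detectable with these libraries.

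Il2 (ENSMUSG00000027720, chromosome 3, 37174672 to 37180108, minus strand) encodes the T cell growth factor, which both groups also received from outside as recombinant protein. It had 129, 70 and 135 counts with vehicle and 90, 45 and 79 with S1P, or 7.44, 5.13 and 8.68 CPM against 5.06, 3.95 and 6.2 CPM. Replicate 2 was the lowest in both groups, and the groups overlapped. The log2 fold change was -0.48 (SE 0.22, 95% interval -0.95 to -0.01), close to that of Ifng, but it did not pass with an edgeR adjusted p of 0.115. It passed without vehicle replicate 2 (-0.66, 0.0434), and it was -0.32 (0.377) without vehicle replicate 3 and -0.35 (0.226) without S1P replicate 2. The SE of the log2 fold change was 0.215, and counting error alone gives an SE of 0.126, compared with 0.0863 and 0.0235 for Ifng.

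Il3 and Csf2 encode the growth factors of myeloid cells IL-3 and GM-CSF and stand next to each other on chromosome 11, with 15636 bases between Il3 (ENSMUSG00000018914, 54156129 to 54158103) and Csf2 (ENSMUSG00000018916, 54138097 to 54140493), both on the minus strand. Il3 had 13, 10 and 9 counts with vehicle and 23, 18 and 24 with S1P. Scaled, these were 0.749, 0.733 and 0.579 CPM against 1.29, 1.58 and 1.88 CPM, and every S1P library lay above every vehicle library. Il3 was called higher at 2.26 times the vehicle level (log2 fold change 1.18, SE 0.31, 95% interval 0.51 to 1.85, edgeR adjusted p = 0.0142). It rests on 32 counts over the vehicle group and 65 over the S1P group, with a counting SE of 0.312 on the log2 scale. The call was lost without vehicle replicate 3 (1.07, edgeR adjusted p = 0.0687) and without S1P replicate 3 (1.03, 0.0572), and it held without S1P replicate 2 (1.17, 0.0238). Asking for 10 counts in every sample took Il3 out of the test altogether.

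Csf2 had 42, 32 and 54 counts with vehicle and 31, 83 and 59 with S1P, or 2.42, 2.35 and 3.47 CPM against 1.74, 7.28 and 4.63 CPM. The S1P libraries ran from below the vehicle group to well above it, and S1P replicate 2, the library with the high mitochondrial share, was the highest. The log2 fold change was 0.66 (SE 0.40, 95% interval -0.22 to 1.55, edgeR adjusted p = 0.245). It moved to 0.15 (0.788) without S1P replicate 2 and to 1.10 (0.00753) without S1P replicate 1, so either of these libraries moved the value by over 1.5 times. With limma-voom the log2 fold change of Csf2 was 0.38 (limma-voom adjusted p = 0.547). The lncRNA model Gm57329, which covers 18.6% of the Csf2 exons on the opposite strand, had 1 count over all libraries. Il3 to Csf2, as a ratio of counts, ran from 0.167 to 0.312 with vehicle and from 0.217 to 0.742 with S1P and overlapped.

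Il4 and Il13 encode the type 2 cytokines that drive IgE and mucus production, and lie 12655 bases apart on the minus strand of chromosome 11 (Il4, ENSMUSG00000000869, 53493809 to 53509496; Il13, ENSMUSG00000020383, 53522151 to 53525529). Il13 had 31, 36 and 46 counts with vehicle and 63, 30 and 53 with S1P, or 1.79, 2.64 and 2.96 CPM against 3.54, 2.63 and 4.16 CPM. S1P replicate 2 lay inside the vehicle range and the other S1P libraries lay above it. The log2 fold change of Il13 was 0.50 (SE 0.25, 95% interval -0.04 to 1.05, edgeR adjusted p = 0.152). It was 0.65 (0.0634) without S1P replicate 2 and 0.30 (0.447) without vehicle replicate 1. Il4 had 23, 17 and 32 counts with vehicle and 24, 35 and 33 with S1P, or 1.33, 1.25 and 2.06 CPM against 1.35, 3.07 and 2.59 CPM. S1P replicate 1 lay inside the vehicle range. The log2 fold change of Il4 was 0.55 (SE 0.34, 95% interval -0.19 to 1.28, edgeR adjusted p = 0.252), which became 0.30 (0.562) without S1P replicate 2 and 0.86 (0.0469) without S1P replicate 1. S1P replicate 2 was the highest of its group for Il4 and the lowest for Il13. Kif3a, a kinesin gene on the opposite strand, covers 14.6% of the Il4 exons and was itself higher with S1P (125, 109 and 121 counts against 210, 184 and 146). Without the strand setting of the counting, reads of the shared bases cannot be told apart.

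Il10 (ENSMUSG00000016529, chromosome 1, 130947581 to 130952711, plus strand) encodes the anti-inflammatory cytokine IL-10. It had 32, 27 and 34 counts with vehicle and 40, 33 and 26 with S1P, or 1.84, 1.98 and 2.19 CPM against 2.25, 2.9 and 2.04 CPM. The groups overlapped, with a log2 fold change of 0.25 (SE 0.23, 95% interval -0.26 to 0.76, edgeR adjusted p = 0.458). Without S1P replicate 2 the log2 fold change was 0.11 (edgeR adjusted p = 0.78). At 93 counts over the vehicle group and 99 over the S1P group, a change of the size measured for Ifng would lie inside this interval if it were a rise, and a fall of that size would lie outside it.

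**Figure D4:**
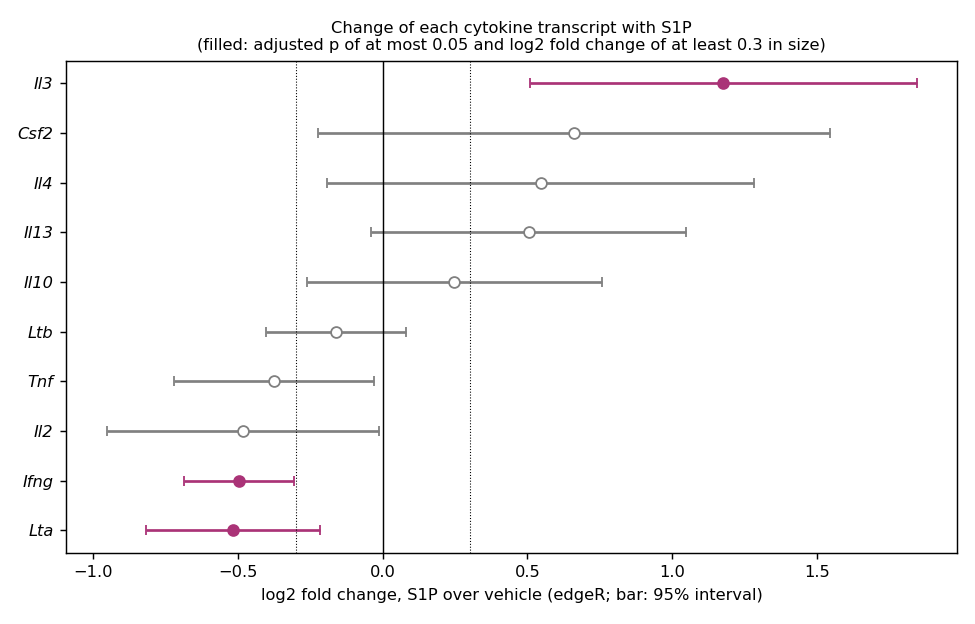
log2 fold change of S1P over vehicle for the 10 cytokine genes with 95% intervals from edgeR; filled points passed both thresholds, and dotted lines mark a log2 fold change of 0.3 in either direction. Ifng (-0.50), Lta (-0.52) and Il3 (1.18) are filled, and the intervals widen from Ifng to the low-count genes, up to -0.22 to 1.55 for Csf2.

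Relative to Ifng within the same library, which does not depend on the scaling, Il3 made up 0.00273 to 0.00377 of the Ifng count with vehicle and 0.00936 to 0.0132 with S1P. Il13 made up 0.00899 to 0.014 of the Ifng count with vehicle and 0.0156 to 0.0291 with S1P. The groups did not overlap for either ratio. For Il3 this had to follow, since the groups of Il3 and of Ifng were already apart in opposite directions. The groups of Il13 itself overlapped, and its ratio also carries the fall of Ifng. Lta to Ifng overlapped, at 0.277 to 0.419 with vehicle and 0.343 to 0.378 with S1P. These ratios were chosen after the values were seen and are descriptions.

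Receptors of these cytokines were mostly not called. Of 18 receptor genes, 15 were tested, 2 were called higher and 0 lower (13.3%, beside 23.1% of all tested genes), with a median log2 fold change of -0.10. DESeq2 and limma-voom also called 2 higher and 0 lower, and 3 genes were lower at an unadjusted p under 0.05. Ifngr2, the signalling chain of the IFN-γ receptor, was higher (19.8 ± 0.765 CPM with vehicle and 27 ± 1.3 CPM with S1P, n = 3, log2 fold change 0.45, edgeR adjusted p = 0.0031). Il10ra, the binding chain of the IL-10 receptor, was higher as well (54.2 ± 4.63 and 73.4 ± 6.22 CPM, 0.44, 0.00331). The binding chain Ifngr1 stood at 62.6 ± 10.6 and 73.7 ± 6.92 CPM and was not called (0.24, edgeR adjusted p = 0.129), although it passed without vehicle replicate 2 (0.38, 0.0254) or without S1P replicate 2 (0.31, 0.037). For the receptors that bind lymphotoxin α, the log2 fold changes were -0.19 for Tnfrsf1a (edgeR adjusted p = 0.209), -0.10 for Tnfrsf1b (0.392) and -0.13 for Tnfrsf14 (0.598). Tnfrsf1b was -0.04 without S1P replicate 3 and -0.17 without S1P replicate 1. Ltbr, the receptor of membrane lymphotoxin, which T cells are known to lack, had 4 counts over the vehicle group and 1 over the S1P group and was not tested. The IL-3 receptor chains were low and not called: Il3ra (5.46 and 5.09 CPM, log2 fold change -0.08), Csf2rb (3.45 and 3.29 CPM, -0.11) and Csf2rb2 (0.69 and 0.587 CPM, -0.29). Csf2rb2 was -0.09 without S1P replicate 1 and -0.55 without S1P replicate 3.

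Among 43 other cytokine and TNF superfamily genes, 25 could be tested, 7 were called higher and 4 lower (44%, beside 23.1% of all tested genes, median log2 fold change 0.19). The largest rises were in Tgfb3, a TGF-β family ligand (1.31 ± 0.134 to 4.3 ± 1.35 CPM, log2 fold change 1.74, edgeR adjusted p = 0.00085), Ebi3, a subunit of IL-27 and IL-35 (2.28 ± 0.0923 to 4.56 ± 0.575 CPM, 1.01, 0.00269), and Tnfsf9, the ligand of 4-1BB (1.54 ± 0.312 to 3.13 ± 0.579 CPM, 1.00, 0.012). The largest falls were in Tnfsf4, the OX40 ligand (10.9 ± 0.63 to 6.66 ± 0.214 CPM, -0.71, 0.00175), Tnfsf11, the RANK ligand (12.9 ± 2.99 to 8.55 ± 0.566 CPM, -0.59, 0.0194), and Tnfsf10, the death ligand TRAIL (29.9 ± 0.942 to 20.6 ± 0.448 CPM, -0.54, 0.000773). Tnfsf9 lost its call without vehicle replicate 3 (0.86, edgeR adjusted p = 0.0592). Tnfsf11 lost it without vehicle replicate 1 (-0.61, 0.0521), vehicle replicate 3 (-0.41, 0.0958) or S1P replicate 3 (-0.61, 0.0561). Tnfsf4, which B cells and other antigen-presenting cells also express, fell beside the B cell markers Ms4a1 and Cd22 but not Pax5, and their part in it was not tested.

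Transcription factors known to act on cytokine genes were mostly higher where they were called. Of 36 listed, 35 were tested, 13 were called higher and 1 lower (40%, beside 23.1% of all tested genes, median log2 fold change 0.27), and 24 had groups that did not overlap, as did 45.6% of all tested genes. Rora, a nuclear receptor of type 2 and type 17 lymphocytes, rose from 9.56 ± 2.29 to 41.5 ± 5.43 CPM (log2 fold change 2.13, edgeR adjusted p = 1.27e-05). The AP-1 subunits Fosl2 (38.9 ± 4.36 to 104 ± 16 CPM, 1.42, 2.1e-05) and Jun (33.1 ± 5.26 to 80.1 ± 8.85 CPM, 1.27, 4.04e-05) rose as well. Gata3, the factor of type 2 cytokine genes, rose from 20.7 ± 2.53 to 32.1 ± 0.881 CPM (0.63, 0.000864). The only factor called lower was Eomes, a T-box factor that acts on Ifng in CD8+ T cells, which stood at 62, 66.9 and 66.1 CPM with vehicle and 31.3, 42.1 and 34.4 CPM with S1P (-0.86, 0.000162). In these libraries S1P replicate 2, the library with the high mitochondrial share, was the highest of its group for Eomes, as it was for Ifng. The part of Eomes in the Ifng value was not tested.

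Of 18 tested factors that remove or protect AU-rich and stem-loop transcripts, 4 were called higher and 1 lower (27.8%, median log2 fold change 0.05), a share near the 23.1% of all tested genes. Arid5a, which is known to stabilize cytokine transcripts against Regnase-1, rose from 92.4 ± 3.73 to 151 ± 14.3 CPM (log2 fold change 0.71, edgeR adjusted p = 0.000122). Btg2, an adaptor of the CCR4-NOT deadenylase (28.7 ± 0.662 to 42.2 ± 2.19 CPM, 0.56, 0.000491), and Zfp36, which encodes the AU-rich binding protein tristetraprolin (34.3 ± 3.06 to 48.2 ± 5.78 CPM, 0.49, 0.00463), rose too. Elavl1, the gene of HuR, which protects AU-rich transcripts, fell from 198 ± 3.29 to 158 ± 12.2 CPM (-0.33, 0.00571). Without S1P replicate 2 its log2 fold change was -0.28 (edgeR adjusted p = 0.00323), under the fold threshold. The pentamers printed above are where such proteins are known to bind, and no binding was measured here.

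Known target genes of the cytokines were read as a list of 55, of which 48 were tested, 13 called higher and 1 lower (29.2%, median log2 fold change 0.13), beside 23.1% of all tested genes called, 12.7% higher and 10.4% lower. Cxcl10, an IFN-γ-induced chemokine, rose from 2.65 ± 0.142 to 8.35 ± 1.54 CPM (log2 fold change 1.66, edgeR adjusted p = 0.000116). Socs3, a feedback inhibitor of cytokine receptors, rose from 19.3 ± 0.991 to 34.5 ± 3.03 CPM (0.84, 0.000123), and Tnfaip3, the NF-kB feedback inhibitor A20, from 64.6 ± 3.79 to 112 ± 7.67 CPM (0.80, 4.82e-05). By cytokine, 18 IFN-γ targets were tested with 4 higher and 1 lower, 12 targets of TNF and NF-kB with 4 higher, 13 targets of IL-2 and STAT5 with 3 higher, and 7 targets of IL-4, IL-13 and STAT6 with 2 higher. The single fall was Ciita, the regulator of MHC class II genes that B cells also express (61.3, 43.2 and 52.3 CPM with vehicle and 40.3, 39.1 and 45.2 CPM with S1P). Its groups overlapped, and it stood at the edge of the threshold (-0.33, edgeR adjusted p = 0.04995), losing its call without vehicle replicate 1 (-0.20, 0.231), vehicle replicate 3 (-0.34, 0.123), S1P replicate 1 (-0.31, 0.0903), S1P replicate 2 (-0.30, 0.0688) or S1P replicate 3 (-0.40, 0.0624).

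**Figure D5:**
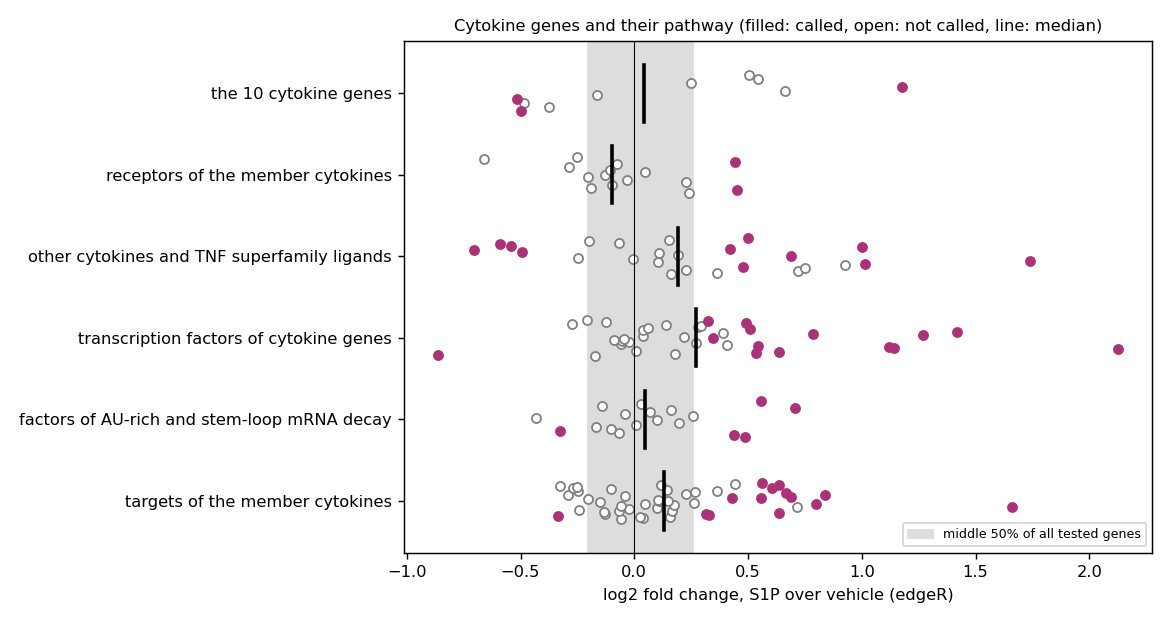
log2 fold changes of S1P over vehicle for the tested genes of each list, with filled points for genes that passed both thresholds, a vertical line at each list's median and a grey band for the middle 50% of all tested genes (-0.20 to 0.26). Of the 10 cytokine genes, Ltb (-0.16) and Il10 (0.25) lie inside the band, 4 lie to its left and 4 to its right, whereas 13 of 35 transcription factors lie to the right as filled points and 1, Eomes, to the left.

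Genes that neighbour the cytokines were read for a change that covers a whole locus. Within 100 kilobases of the 10 genes the annotation holds 29 other protein-coding genes, of which 18 were tested, 4 called higher and 1 lower, beside 12.7% and 10.4% of all tested genes. Kif3a, which overlaps Il4, was higher (7.66 to 13.1 CPM, log2 fold change 0.77, edgeR adjusted p = 0.00319). Rad50, a DNA repair gene 14308 bases from Il13 that carries the known control region of the type 2 cytokine locus, was higher (182 to 232 CPM, 0.35, 0.0376), and lost its call in the fits without vehicle replicate 1 (0.34, 0.117), vehicle replicate 2 (0.36, 0.0933), vehicle replicate 3 (0.34, 0.111), S1P replicate 2 (0.18, 0.0311) and S1P replicate 3 (0.39, 0.0585). Acsl6, an acyl-CoA synthetase gene 36249 bases from Il3, was higher at low counts (0.774 to 2.04 CPM, 1.49, 0.0279), and lost its call without vehicle replicate 1 (1.15, 0.122), vehicle replicate 3 (1.22, 0.119) or S1P replicate 1 (1.12, 0.108). Without vehicle replicate 2 it was 2.27 (0.00676). Il21, a helper cytokine 96800 bases from Il2, was called higher at 5.07 to 7.02 CPM (0.48, 0.0379), while Il2 itself had a negative log2 fold change. Its call was lost without vehicle replicate 1 (0.42, 0.138), vehicle replicate 2 (0.55, just above 0.05), vehicle replicate 3 (0.45, 0.121), S1P replicate 1 (0.48, 0.068) or S1P replicate 3 (0.40, 0.129), and with DESeq2 (0.47, 0.0795), total counts (0.45, 0.0582), no filter (0.45, 0.0975) or the replicate block (0.48, 0.0511). The neighbour called lower was Ddx39b, an RNA helicase gene 36127 bases from Lta (306 to 248 CPM, -0.30, 0.00549), at the edge of the fold threshold and under it without vehicle replicate 1 (-0.29), without S1P replicate 2 (-0.26) or with at least 10 counts in every sample (-0.30 after rounding). In the type 2 locus Il5, the third cytokine gene, averaged 2.67 counts per library and was not tested.

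Genes whose level followed that of Ifng over the 6 libraries were listed as a description, among 5511 genes whose log2 CPM averaged 5 or more. Pearson's r with the log2 CPM of Ifng was 0.998 for Plk1, a mitotic kinase, 0.994 for Wwp2, a ubiquitin ligase, 0.993 for Eomes, 0.992 for Cpsf2, a subunit of the polyadenylation machinery, and 0.988 for Zmpste24, a protease of the endoplasmic reticulum. These points share library, depth and treatment group, so r mixes the difference between groups with that within them. The log2 fold changes of the 5 genes were -0.31, -0.14, -0.86, -0.17 and -0.26. Plk1 fell under the fold threshold without vehicle replicate 2 (-0.29), without S1P replicate 1 (-0.28) or without S1P replicate 3 (-0.29).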

How the data were processed

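RNA was measured by strand-specific sequencing of polyadenylated RNA in 3 vehicle and 3 S1P samples, grouped by their labels. The authors trimmed reads with Trim Galore, aligned them with STAR (GRCm39 in the submitters' processing notes) and made gene counts with featureCounts. The deposited values are whole-number counts without normalization, and the annotation release, the strand setting, how multi-mapping reads were counted and the tool versions are not given in the sources used here. The authors tested with DESeq2, and no values of theirs were used.

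Of 56941 Ensembl identifiers, 56323 were found in GENCODE vM39 (GRCm39), which gave symbols, positions and exon lengths. Genes with a count numbered 34414, and edgeR's filterByExpr kept 13299. Totals were 17089831, 13636095 and 15410486 counts in the vehicle samples and 17384084, 12048880 and 12784236 in the S1P samples. TMM factors scaled the libraries, and the quasi-likelihood test of edgeR 4.0.16 (run in R 4.3.3 with limma 3.58.1) compared the groups in a model of treatment alone. P-values were adjusted over all tested genes by Benjamini-Hochberg. A gene was called where the adjusted p did not exceed 0.05 and the log2 fold change reached 0.3 in either direction, as the study set them. No samples of a group agreed within sampling noise (chi-square per gene of 3.77 to 31.4), so none was taken as a copy of another library, which does not show that they are independent. Counting standard errors and the floor of 3 counts per library cover counting error only. The main edgeR fit, DESeq2 and limma-voom were tested on simulated data. The replicate block, the other scalings and filters and the fits without a library were not.

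Part of the 3′ untranslated sequence results is not reported here. The genes, lists and motifs were chosen with earlier results of these data known, so counts over them are descriptions. Named are the 10 cytokine genes; up to 3 called genes with the largest rise and 3 with the largest fall of each other list; receptor chains of called cytokines; the 5 genes most like Ifng; called neighbours; and the highest marker of each other cell type. Gata3 among the factors, the further markers and Il5 were added after their values were seen. The alternatives were RLE factors, total counts, no filter, at least 10 counts in every sample, DESeq2 1.42.0, limma-voom, a block for replicate number, other fold thresholds, the longest transcript as length, and the fit without each library.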

Additional observations from a re-analysis of the deposited data

How the results depend on the processing

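The log2 fold changes of the 10 cytokine genes kept their sign under all 129 alternative values, and 118 stayed on their side of the thresholds. Ifng kept its call under each of the 13 alternatives run at the fold threshold of 0.3. Of the cytokine genes, the number called higher was 1, 0 with at least 10 counts in every sample (Il3 was then not tested) and 0 to 3 without each library. The number called lower was 2, 0 at a log2 fold change of at least 1, and 1 to 4 without each library. Over all genes, 383 were higher and 82 lower at a log2 fold change of at least 1. The replicate numbers were not taken to pair the samples, since deviations of same-numbered samples correlated at 0.12, -0.00598 and 0.0483, and 3 of 6 samples correlated best with their own number. With the replicate block, Il2 was called lower (-0.48, adjusted p = 0.0377), as it was with no filter (-0.51, adjusted p = 0.0451). In the lists, the number called lower without each library was 0 to 1 for receptors, 2 to 4 for other cytokines, 1 to 2 for transcription factors, 0 to 1 for decay factors and 0 to 3 for targets. Transcription factors called lower were 2 with total counts and 2 with no filter. Targets called lower were 2 with total counts, 3 with no filter, 0 with at least 10 counts in every sample, 0 with limma-voom and 2 with the replicate block, against 1. Ciita then had log2 fold changes of -0.33 under both the filter and limma-voom (adjusted p = 0.0528 and 0.0579). With the longest transcript as length, levels per kilobase were 174 for Ifng (vehicle), 53.9 for Ltb (vehicle), and 2.55 and 3.86 for Il4. Some log2 fold changes not called with all libraries turned sign. Without each library, Tnfrsf14 ran from -0.2651 to 0.07007, Il3ra from -0.2711 to 0.01816, Csf2rb from -0.2747 to 0.06902, Cd4 from -0.02003 to 0.177, Ighm from -0.06347 to 0.05047 and Klrk1 from -0.001957 to 0.4084 (called there, without vehicle replicate 2, adjusted p = 0.0168). Ighm was also -0.01428 with total counts and -0.01658 with no filter. Of 711 alternative values of the 55 other named genes, 647 stayed on their side. No filter moved the median log2 fold change of all genes to 0.16. The causes of these changes were not tested. Il3, Il4, Il10, Il13 and Csf2 had at most 173 counts over a group. For Il3 counting error alone gives an SE of 0.312, beside a fitted SE of 0.31. For Csf2 these were 0.168 and 0.40, so its SE went well beyond counting error.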
